A study of Mus musculus with 29 samples.

Results

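The regions described here were stretches of 200 bp of the mouse genome (GRCm38/mm10) that were open in rods, in both kinds of cone and in OFF bipolar cells, and closed in ON bipolar cells. A population was taken as open where the midpoint of the region lay in an ATAC-seq peak of both replicates 1 and 2 (single-sorted libraries for green cones), and as closed where it lay in a peak of neither. Of 110715 regions in the table, 1994 met this rule. The regions were thus chosen by measured ATAC-seq peaks, those of OFF bipolar cells (OFF-BC), ON bipolar cells (ON-BC), rods, blue cones and green cones, so the contrast of ON-BC with the other populations is given below as a description only. The study sorted retinal cell populations from adult mice and profiled accessible chromatin by ATAC-seq, in which a transposase cuts open DNA, and transcripts by RNA-seq. ON-BC and OFF-BC came from Otx2-GFP+/-; Grm6-YFP+/+ mice, which are heterozygous for a GFP cassette placed at the end of the Otx2 gene and in which the Grm6 promoter drives YFP in ON bipolar cells. ON-BC were sorted once and OFF-BC were sorted a second time, at postnatal day 42 and 46 for ATAC-seq and at day 43, 48 and 42 for RNA-seq. All bipolar cells together (pan-BC) were GFP+ cells of Otx2-GFP+/- mice, sorted once at day 43 to 47, and the sources differ on whether the mice of the pan-BC ATAC-seq libraries also carried the Grm6-YFP transgene. Rods came from Nrl-eGFP mice, green cones from Opn1mw-GFP mice, and the blue cones were photoreceptors of Nrl-eGFP;NrlKO mice, which take the place of blue cones, all at day 56. These photoreceptor libraries were taken over from an earlier study, so that cell class, study and age cannot be told apart in any comparison of bipolar cells with photoreceptors. Each population had 2 ATAC-seq libraries with region values, 2 more libraries of double-sorted green cones had peaks only, and pan-BC, ON-BC, OFF-BC, rods and blue cones had 3 RNA-seq libraries each. Photoreceptors of the Otx2-GFP line are weakly fluorescent and their gate lies next to that of OFF-BC, and ON cells with little Grm6 may fall in neither sort.

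Photoreceptors and bipolar cells are sister classes of retinal neuron that arise from progenitors expressing the homeodomain factor OTX2. Photoreceptors capture light in an outer segment and release glutamate at ribbon synapses. Bipolar cells receive that signal: ON bipolar cells depolarise when light turns on, through the metabotropic receptor encoded by Grm6, and OFF bipolar cells depolarise when it turns off, through ionotropic receptors such as the product of Grik1. Homeodomain proteins with a lysine at the DNA-contacting position (K50), which include OTX2 and CRX, prefer the cores TAATCC and TAAGCC, whereas those with a glutamine there (Q50), such as RAX, VSX and LHX factors, prefer TAATTA and TAATTG.

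The sequences of 8 regions that lie nearest to genes of phototransduction, of the outer segment, and of photoreceptor or bipolar transcription are shown first, because their values recur in the results. They had the highest OFF-BC means among regions nearest to such genes, with 1 region per gene and Rax left aside. Each is the + strand of the GRCm38 RefSeq assembly (mm10), written 5′ to 3′, with these 4 homeodomain cores, on either strand, in capitals. A pair of regions was far more open in cones and OFF-BC than in rods. The region at chr1:155655008-155655207 lay in an intron, 86.9 kb downstream of the transcription start site (TSS) of Lhx4, which encodes a LIM homeodomain factor of bipolar cells and cones, and held 1 TAATCC. The region at chr1:37239376-37239575 lay in an intron 20.3 kb downstream of the TSS of Cnga3, which encodes the cone cyclic nucleotide-gated channel subunit, and held none of the 4 cores.
Lhx4: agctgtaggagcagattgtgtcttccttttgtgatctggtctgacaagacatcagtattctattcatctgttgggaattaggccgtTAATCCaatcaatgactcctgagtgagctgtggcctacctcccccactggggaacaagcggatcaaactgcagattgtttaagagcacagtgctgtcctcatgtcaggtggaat
Cnga3: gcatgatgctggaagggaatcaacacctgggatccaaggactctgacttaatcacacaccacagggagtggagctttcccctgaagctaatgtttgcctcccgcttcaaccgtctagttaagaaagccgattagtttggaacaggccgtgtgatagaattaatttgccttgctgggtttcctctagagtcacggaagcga

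The next 4 regions lay nearest to genes that were strongly expressed in photoreceptors, and each held at least 1 core. The region at chr3:88147955-88148154 lay in an intron 5.68 kb downstream of the TSS of Mef2d, a MADS-box transcription factor. The region at chr3:30746111-30746310 was the promoter of Samd7, a repressor protein of photoreceptor nuclei. The region at chr13:51170639-51170838 was the promoter of Nxnl2, which encodes a thioredoxin-like protein that sustains photoreceptors. The region at chr10:44464648-44464847 was intergenic, 6.0 kb upstream of the TSS of Prdm1, a factor that represses bipolar fate in photoreceptor precursors.
Mef2d: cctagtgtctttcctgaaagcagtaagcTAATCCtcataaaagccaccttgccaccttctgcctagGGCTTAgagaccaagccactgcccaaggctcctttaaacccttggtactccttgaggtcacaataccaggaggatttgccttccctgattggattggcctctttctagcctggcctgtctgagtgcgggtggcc
Samd7: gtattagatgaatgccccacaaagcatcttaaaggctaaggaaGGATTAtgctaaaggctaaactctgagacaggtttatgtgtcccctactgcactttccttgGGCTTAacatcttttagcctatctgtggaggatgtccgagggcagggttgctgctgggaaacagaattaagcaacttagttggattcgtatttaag
Nxnl2: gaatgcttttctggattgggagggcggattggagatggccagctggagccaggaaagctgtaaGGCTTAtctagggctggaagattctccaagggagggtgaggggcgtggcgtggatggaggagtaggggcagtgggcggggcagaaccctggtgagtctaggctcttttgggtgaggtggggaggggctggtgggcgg
Prdm1: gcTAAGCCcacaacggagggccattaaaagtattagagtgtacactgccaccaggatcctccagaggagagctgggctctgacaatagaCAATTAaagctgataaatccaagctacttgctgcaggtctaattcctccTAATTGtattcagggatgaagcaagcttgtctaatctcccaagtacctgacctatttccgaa

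The last pair held none of the 4 cores. The region at chr9:75308693-75308892 lay in an intron 2.5 kb downstream of the TSS of Gnb5, a G protein beta subunit that pairs with RGS proteins in photoreceptors and bipolar cells. The region at chr3:122053640-122053839 lay in an intron 9.28 kb downstream of the TSS of Abca4, the outer segment transporter that clears retinoid from the discs.
Gnb5: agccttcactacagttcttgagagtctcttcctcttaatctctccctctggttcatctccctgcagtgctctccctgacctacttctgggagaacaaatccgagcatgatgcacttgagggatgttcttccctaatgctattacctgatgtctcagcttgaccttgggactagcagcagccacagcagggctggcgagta
Abca4: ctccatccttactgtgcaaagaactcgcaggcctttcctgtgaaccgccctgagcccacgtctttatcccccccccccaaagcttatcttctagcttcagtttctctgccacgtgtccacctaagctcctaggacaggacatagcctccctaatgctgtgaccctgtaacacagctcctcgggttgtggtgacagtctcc

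Values are read counts scaled by the authors with a single size factor for each library, called normalised read counts below. Libraries held 4176776 to 12345845 counted reads for ATAC-seq and 12329548 to 26266746 for RNA-seq. Over the 1994 regions, the median normalised read count was 45.8 and 42.8 in the OFF-BC libraries. Rods had medians of 104 and 109, blue cones of 92.6 and 98.3, and green cones of 94.9 and 92.9. The regions were thus less open in OFF-BC than in photoreceptors, although all these populations had peaks there. In ON-BC, which the rule required to be closed, the medians were 11.9 and 11.7, and in pan-BC, which the rule did not use, they were 20.0 and 20.5. Region by region, OFF-BC stood at a median of 42.9% of the rod mean (10th to 90th percentile 14.4 to 140%), 47.0% of the blue cone mean (24.7 to 94.6%) and 48.3% of the green cone mean (25.9 to 95.1%). Both OFF-BC libraries were above both rod libraries at 234 regions and below both at 1462. Peaks were also lower in OFF-BC: the median fold enrichment over local background was 8.03 and 7.02 in the OFF-BC libraries, whereas rods had 15.5 and 15.9, blue cones 11.5 and 16.2, and green cones 12.5 and 9.94.

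**Figure D1:**
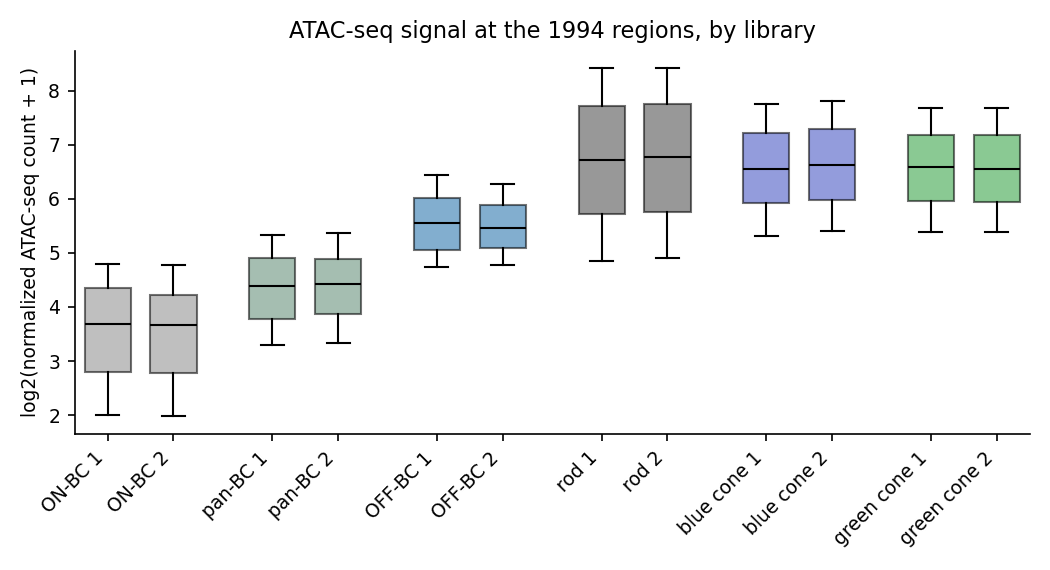
ATAC-seq levels, as log2(normalised count + 1), of the 1994 regions in each of the 12 libraries, drawn as the median with the 25th to 75th and 10th to 90th percentiles. Before the log, the 2 OFF-BC libraries have medians of 45.8 and 42.8, between those of pan-BC (20.0 and 20.5) and those of the photoreceptors (92.6 to 109).

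Among photoreceptors, the order of the regions in OFF-BC was closer to that in cones than to that in rods. Across the 1994 regions, Spearman's rho of the OFF-BC mean was 0.60 with pan-BC, 0.56 with blue cones, 0.55 with green cones, 0.31 with rods and 0.33 with ON-BC. These correlations are across regions, which are not independent replicates, and share depth and base composition. Peaks of the same libraries, pan-BC aside, chose the regions and so limited the range of values in each population. The correlations are therefore given as a description. The 2 libraries of a population correlated with each other at 0.66 in OFF-BC, 0.63 in ON-BC, 0.72 in pan-BC, 0.94 in blue cones, 0.92 in green cones and 0.98 in rods. The bipolar libraries were thus less alike at these regions. OFF-BC replicate 1 had 4498372 counted reads and blue cone replicate 1 had 4572550, and the cause of the lower correlation was not tested.

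The rule has a threshold at the presence of a peak. The members with the weakest OFF-BC peaks included a region in an intron of 9030204H09Rik, with 35.0 and 25.3 normalised counts in OFF-BC, and an intergenic region next to Hes7, with 25.6 and 44.8. Just outside, with a peak in only 1 OFF-BC replicate, lay a region in an intron of Sin3a, with 120 and 134, and the promoter of Bdh1, with 113 and 76.9. Regions just outside were therefore not always less open in OFF-BC than those just inside. The Sin3a values were the highest of their class, however. The class had OFF-BC medians of 24.2 and 23.4, against 45.8 and 42.8 for members. In all, 1126 regions missed the rule by 1 OFF-BC replicate and 1365 by a peak in 1 ON-BC replicate.

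Peaks of libraries outside the rule were looked up at the same midpoints. Of the 1994 regions, 720 (36.1%) lay in a peak of both pan-BC replicates, 658 (33.0%) in a peak of 1 and 616 (30.9%) in none. The share with both was 5.73% among 1866 regions open in the 3 photoreceptors and closed in both ON-BC and OFF-BC (photoreceptor-only regions), 99.6% among 18308 regions open in all 5 populations, and 58.6% over all regions. Pan-BC replicate 2 was the deeper library, with 12345845 counted reads against 7937202, and the share in its peaks alone was 65.3% against 39.9% for replicate 1 alone, so the share in both rests on the shallower library. Both pan-BC libraries were above both ON-BC libraries at 1205 regions and below both at 37. Regions with a peak in both pan-BC replicates had a median of 53.7 normalised counts in OFF-BC and 17.0 in ON-BC, against 35.4 and 7.38 for regions with a pan-BC peak in neither. In the double-sorted green cones, 1594 regions (79.9%) lay in a peak of both libraries, 310 in 1 and 90 in none, compared with 41.5% of photoreceptor-only regions and 24% of all regions in both.

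The most open of the 1994 regions in OFF-BC was the promoter of the RNA gene 4930488L21Rik, with 318 and 240 normalised counts in OFF-BC, 86.6 and 83.5 in ON-BC, 276 and 283 in rods, and 395 and 326 in blue cones. It was also among the 10 regions highest in pan-BC (120 and 145). The OFF-BC value there overlapped the rod values. The next 9 by OFF-BC mean had 102 to 229 in OFF-BC and 1.49 to 26.4 in ON-BC, and lay nearest to Rufy1, Marchf1, 4930519F24Rik, Phactr1, Gm30726, Sall3, Gm30173, Lhx4 and Gm4791. Among them was the promoter of Sall3, a zinc finger transcription factor, with 189 and 145 in OFF-BC, 8.96 and 20.5 in ON-BC, 345 and 321 in rods, and 400 and 379 in blue cones. The region 159 kb from Gm4791 had 178 and 116 in OFF-BC, 82.9 and 78.0 in blue cones, and 111 and 133 in rods, and was thus no lower in OFF-BC than in photoreceptors. The other regions highest in pan-BC (nearest to Sesn3, Epc2, C130071C03Rik, Cst3, Tango2, Myh9, Crebzf, Ap4s1 and Gm33054) lay within 1501 bp of a TSS, and ON-BC had 40.3 to 105 counts there in spite of having no peak. At some of them, such as the C130071C03Rik promoter with 80.8 and 64.2 in OFF-BC against 71.7 and 96.6 in ON-BC, the OFF-BC and ON-BC values overlapped.

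Because the OFF-BC gate lay next to that of photoreceptors, the promoters of rod and cone marker genes were measured in the same libraries. The summed normalised count over 12 promoter regions of 10 rod markers was 326 and 317 in OFF-BC, 331 and 293 in ON-BC, and 6937 and 6766 in rods, which put OFF-BC at 4.7% and ON-BC at 4.56% of rods. The summed rod promoter signal was thus near the same low level in OFF-BC and ON-BC. Region by region, both OFF-BC libraries were above both ON-BC libraries at 3 of the 12, below at 3 and overlapping at 6. Without the Gngt1 region, which gave 41.7% of the ON-BC sum, OFF-BC was at 3.76% and ON-BC at 2.75% of rods. The sum over 10 promoter regions of 7 of the 8 cone markers was 453 and 494 in OFF-BC, 264 and 262 in ON-BC, 264 and 263 in pan-BC, and 1532 and 1575 in blue cones, which put OFF-BC at 30.5% and ON-BC at 16.9% of blue cones. At the promoter of the blue cone opsin gene Opn1sw, OFF-BC had 112 and 106, ON-BC 11.9 and 2.93, pan-BC 22.4 and 23.9, and blue cones 242 and 221. At that of the cone phosphodiesterase gene Pde6h, OFF-BC had 44.5 and 38.9, ON-BC 0 in both libraries, and blue cones 215 and 223. At a region at -627 bp from the TSS of Pde6c, another cone phosphodiesterase gene, the order was the opposite, with 72.7 and 51.6 in OFF-BC and 203 and 204 in ON-BC, and this region gave 77.3% of the ON-BC sum. Both OFF-BC libraries were above both ON-BC libraries at 7 of the 10 cone marker regions, below at 1 and overlapping at 2. Without that Pde6c region, a choice made after its values were seen, OFF-BC was at 29.2% and ON-BC at 4.25% of blue cones. The part of cones in the OFF-BC signal at the 1994 regions was not tested. Only the promoters of Pde6g and Arr3 were both a marker promoter and a member.

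OFF-BC was also measured at regions chosen without its peaks. All but the last set below, which required OFF-BC to be closed, required ON-BC to be closed. The ON-BC values are therefore a description, and nothing is read from the distance of OFF-BC to ON-BC. Among 2716 regions open in rods and closed in both cones and ON-BC, OFF-BC stood at a median of 18.9% of rods and ON-BC at 15.7%, and 30 regions (1.1%) had a peak in both OFF-BC libraries. Among 1772 regions open in both cones and closed in rods and ON-BC, OFF-BC stood at 43.5% of blue cones and ON-BC at 11.7%, and 645 (36.4%) had a peak in both OFF-BC libraries. Among the 4986 regions open in all 3 photoreceptors and closed in ON-BC, OFF-BC stood at 28.7% of rods. Of these, 1994 (40%), which are the members themselves, had both OFF-BC peaks. In the opposite direction, of 2197 regions open in the 3 photoreceptors and closed in OFF-BC, 150 (6.83%) had a peak in both ON-BC libraries.

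Accessibility in OFF-BC was then compared with each photoreceptor. The rule required a peak of both populations in these same libraries, whereas most regions of the table need not be open in photoreceptors, so the counts of members called are a description, and nothing is read from their distance to the shares over all regions. The same holds for rods against blue cones below. The test was limma's treat on log2(normalised count + 1) against a log2 fold change of 1, with Benjamini-Hochberg adjustment over 108448 regions, and all 1994 regions were tested. Against rods, 700 regions (35.1%) were called lower in OFF-BC and 14 (0.702%) higher, where 9.45% of all tested regions were called lower and 32.9% higher. The median difference was -1.21 on the log2 scale, against 0.94 over all regions, and scaling to the library total moved these to -0.86 and 1.25. Without OFF-BC replicate 1 the number called higher fell from 14 to 7, and without rod replicate 1 to 9. Against blue cones, 268 regions were called lower, where 3.12% of all regions were, and 0 higher, where 16.7% were. Against green cones, 200 were called lower, where 3.49% of all regions were, and 0 higher, where 10.7% were. The median differences were -1.09 from blue cones and -1.05 from green cones on the log2 scale, against 0.37 and 0.26 over all regions. For both cones, limma's unadjusted p lay below 0.05 for 0 regions higher in OFF-BC, and edgeR and DESeq2 on recovered reads also called 0. The numbers lower than cones varied with the libraries: 178 against blue cones without OFF-BC replicate 2, 138 and 116 without blue cone replicate 1 or 2, and, against green cones, 99 without OFF-BC replicate 1 and 80 and 77 without green cone replicate 1 or 2.

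**Figure D2:**
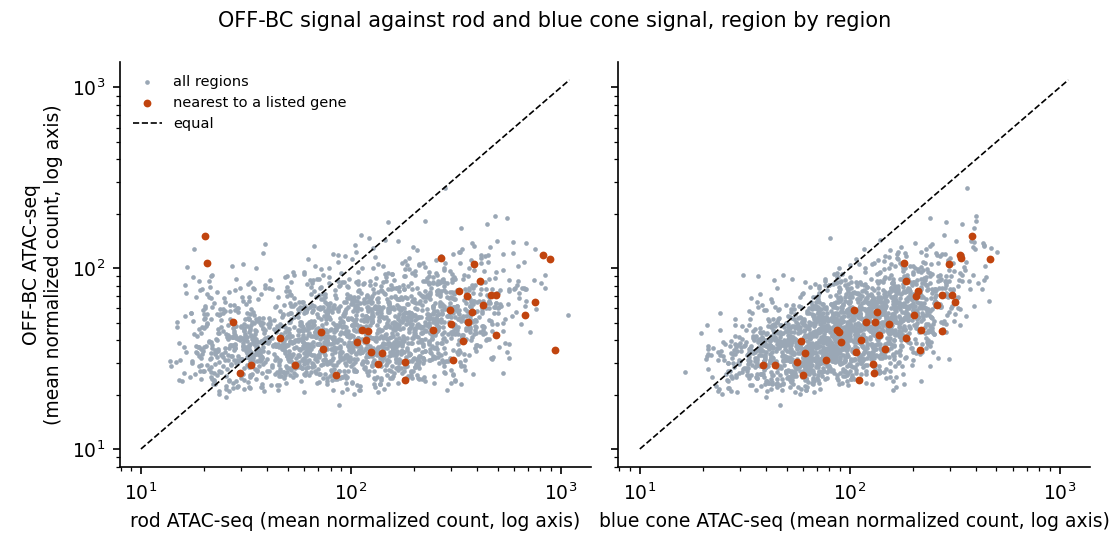
Mean normalised ATAC-seq count in OFF-BC (y axis) against rods (left) and blue cones (right), log axes, 1 point per region of the 1994, with those nearest to a listed gene in orange and a dashed line at equal values. Most points lie below the line, with OFF-BC at a median of 42.9% of the rod mean and 47.0% of the blue cone mean, and the points are spread more widely against rods.

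Among the 8 regions printed above, those near photoreceptor genes were mostly several-fold lower in OFF-BC than in rods. At the Samd7 promoter, OFF-BC had 84.9 and 57.4 normalised counts, ON-BC 17.9 and 17.6, rods 516 and 466, and blue cones 278 and 273. OFF-BC minus rods was -2.79 ± 0.23 (SE, 2 libraries each, limma adjusted p = 4.92e-06) and OFF-BC minus blue cones -1.97 ± 0.23 (adjusted p = 0.00374) on the log2 scale. The groups did not overlap, and OFF-BC lay between ON-BC and both photoreceptors. At the Mef2d intron, OFF-BC had 125 and 101, ON-BC 35.8 and 17.6, rods 907 and 869, and blue cones 518 and 409 (OFF-BC against rods -2.97 ± 0.26, adjusted p = 4.93e-06). At the Gnb5 intron, OFF-BC had 136 and 99.3, ON-BC 20.9 and 14.6, rods 794 and 848, and blue cones 312 and 361 (against rods -2.81 ± 0.23, adjusted p = 3.75e-06). Against blue cones the Mef2d region was called lower (-2.02 ± 0.26, adjusted p = 0.00477), whereas the Gnb5 region did not pass (-1.52 ± 0.23, adjusted p = 0.0776).

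The Prdm1 region had 132 and 78.9 in OFF-BC, 17.9 and 17.6 in ON-BC, 400 and 374 in rods and 278 and 319 in blue cones. The Abca4 intron had 99.7 and 70.1 in OFF-BC, 8.96 and 17.6 in ON-BC, 419 and 403 in rods and 175 and 195 in blue cones. The Nxnl2 promoter had 82.2 and 67.2 in OFF-BC, 25.4 and 7.32 in ON-BC, 335 and 323 in rods and 210 and 211 in blue cones. All 3 were called lower in OFF-BC than in rods (adjusted p = 0.00495, 0.000766 and 0.00889) and none of the 3 passed against blue cones. Of the 40 regions nearest to a listed gene, the one lowest in OFF-BC relative to rods was the promoter of Guca1b, which encodes a guanylate cyclase activating protein of rods. It had 37.7 and 33.1 in OFF-BC, 10.5 and 13.2 in ON-BC, 934 and 952 in rods and 218 and 214 in blue cones, and OFF-BC minus rods was -4.7 ± 0.24 on the log2 scale (adjusted p = 3.24e-09).

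The 14 regions called higher in OFF-BC than in rods were, with 2 exceptions, also called more open in blue cones than in rods. At the Lhx4 intron, OFF-BC had 164 and 139 normalised counts, ON-BC 14.9 and 19.0, pan-BC 48.0 and 63.9, rods 18.7 and 21.7, blue cones 418 and 350, and green cones 211 and 227. OFF-BC was 2.85 ± 0.26 higher than rods on the log2 scale (adjusted p = 9.61e-06), and did not differ from blue cones past the threshold (-1.33 ± 0.26, adjusted p = 0.303). Rods had a value like that of ON-BC there, with peaks in both rod libraries. At the Cnga3 intron, OFF-BC had 102 and 111, ON-BC 5.97 and 20.5, rods 21.8 and 19.7, and blue cones 159 and 205 (against rods 2.31 ± 0.39, adjusted p = 0.00561). The remaining 12 lay nearest to Otud7a, B930095G15Rik, Mir7210, Plb1, Samd12, Gm32900, Lnx1, Fam184a, Scrn1, Esrrg, 4930459C07Rik and 4930555K19Rik, with 62.3 to 171 in OFF-BC and 12.2 to 40.7 in rods. The exceptions were an intron of Fam184a (104 and 65.2 in OFF-BC, 67.3 and 86.0 in blue cones) and the promoter of Esrrg, an orphan nuclear receptor gene (80.8 and 76.9 in OFF-BC, 59.6 and 70.1 in blue cones, 16.4 and 26.4 in rods). The Esrrg region was the only promoter among the 14.

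Few of these regions were called between rods and blue cones. Called higher in rods were 61 regions (3.06%), where 1.46% of all tested regions were, and called lower in rods were 81 (4.06%), where 8.56% were. The median difference was 0.29 on the log2 scale, and it turned to -0.05 under scaling to the library total, where the share of calls that were higher in rods fell from 43.0% to 17.2%. These counts rest on few libraries: without rod replicate 1 or 2, 26 and 26 were called higher and 44 and 51 lower, and without blue cone replicate 1 or 2, 25 and 32 were higher and 48 and 41 lower. An example called higher in rods is the promoter of Mef2c, with 322 and 363 counts in rods against 51.8 and 65.0 in blue cones, and 45.8 and 33.1 in OFF-BC (rods against blue cones 2.54 ± 0.35, adjusted p = 0.00397).

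**Figure D3:**
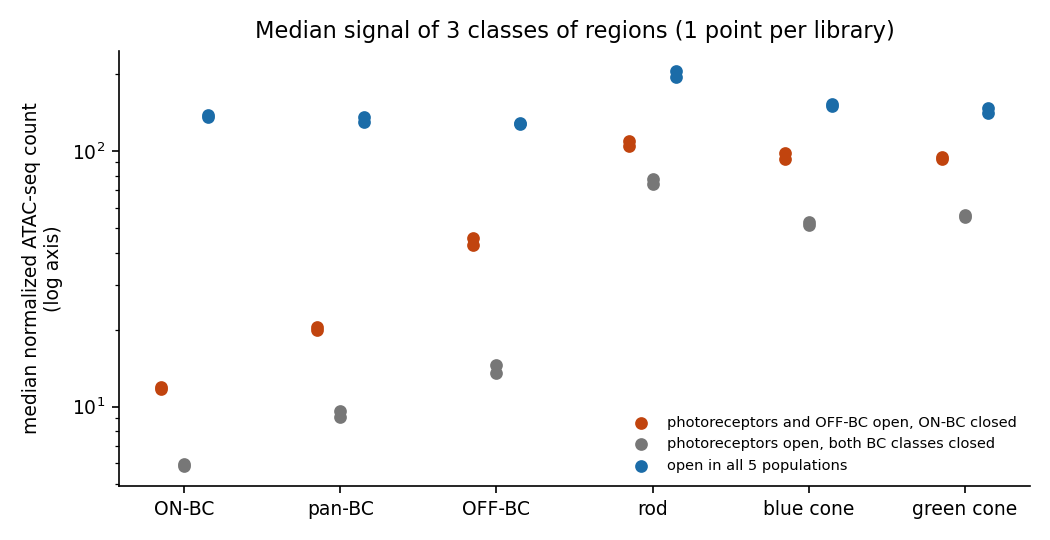
Median normalised ATAC-seq count (log axis) in each library, 1 point per library, for the 1994 regions (orange), photoreceptor-only regions (grey) and regions open in all 5 populations (blue). At the 1994 regions OFF-BC (45.8 and 42.8) lies between ON-BC (11.9 and 11.7) and the photoreceptors, and at photoreceptor-only regions OFF-BC has 13.5 and 14.6 and ON-BC 5.97 and 5.86.

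Against photoreceptor-only regions, the 1994 regions were more open in photoreceptors themselves. The rod medians were 104 and 109 here and 74.0 and 77.3 at the photoreceptor-only regions, and the blue cone medians were 92.6 and 98.3 against 51.2 and 52.8. Rods were higher than cones at the median photoreceptor-only region as well. At these photoreceptor-only regions OFF-BC had 13.5 and 14.6 and ON-BC 5.97 and 5.86, and 1129 (60.5%) were called lower in OFF-BC than in rods, 667 (35.7%) lower than in blue cones and 700 (37.5%) lower than in green cones. Regions open in all 5 populations had higher medians in every library, with 127 and 129 in OFF-BC and 206 and 194 in rods. The classes were cut on peaks in these libraries, so these differences are given as a description.

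Most of the regions were far from promoters. Of the 1994, 1811 (90.8%) were distal, meaning that their centre lay outside every promoter window, which began 1000 bp before a TSS and ended 100 bp after it. The annotation put 1060 in introns, 669 between genes, 183 at promoters, 50 in other exonic sequence and 32 in coding exons, and the median distance to the nearest TSS was 16903 bp. The distal share was 93.5% for photoreceptor-only regions, 42.9% for regions open in all 5 populations and 85.1% over all regions. The 1994 regions lay on 20 chromosomes and held a median of 50% G and C, and 48 lay within 1000 bp of another. Their nearest TSSs belonged to 1673 genes, of which 1418 had 1 region, 206 had 2 and 49 had 3 or more.

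The gene with most regions was Tbc1d22a, which encodes a Rab GTPase-activating domain protein, with 10. Their OFF-BC values ran from 32.1 to 131 and their rod values from 17.1 to 460, so that regions sharing 1 nearest gene did not share 1 level. Next came 5031425E22Rik and Fhod3, a formin that organises actin, with 5 each, and those with 4 each included C1ql3, Casz1, Gm10677, Gm32168 and Mir5127. Casz1 encodes a zinc finger factor. In RNA-seq, Casz1 had 6974, 6834 and 6397 normalised counts in rods, 15.6, 28.8 and 114 in OFF-BC, and 33.0, 36.3 and 42.1 in ON-BC, and Tbc1d22a had 270, 223 and 196 in rods and 146, 220 and 198 in OFF-BC.

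Sequence cores of known factor families were counted in the 200 bp windows, on both strands. TAATCC was in 720 of the 1994 regions (36.1%), against 45.3% of photoreceptor-only regions, 10.3% of regions open in all 5 populations and 21.8% of all regions. TAAGCC was in 24.6%, against 25.2%, 8.89% and 14.2% in the same order. The K50 cores were thus in a larger share of the members than of all regions. Among distal regions alone, TAATCC was in 37.7% of members and 24.6% of all. The Q50 cores TAATTA and TAATTG were in 7.87% and 9.23% of members, against 5.2% and 6.88% of all regions. Photoreceptor-only regions had similar shares, 7.66% and 8.84%. The E-box CAGATG, a core of basic helix-loop-helix factors, was in 17.3% of members and 22.3% of all regions, and CAGCTG in 16.6% and 18%. AGGTCA, the core of nuclear receptors, was in 21.4% of members and 15.6% of all regions. TGCTGA, part of the site of MAF factors such as NRL, was in 19.3% and 17.8%, and the MEF2 motif in 2.76% and 3.32%. In photoreceptor-only regions AGGTCA was in 21.6%, TGCTGA in 17.3% and the MEF2 motif in 4.61%. The CTCF motif was in 2.21% of members, 0.322% of photoreceptor-only regions, 5.61% of regions open in all 5 populations and 4.2% of all regions. The shares describe letters in a window, and a region with several motifs, which may overlap one another, was counted for each of them.

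**Figure D4:**
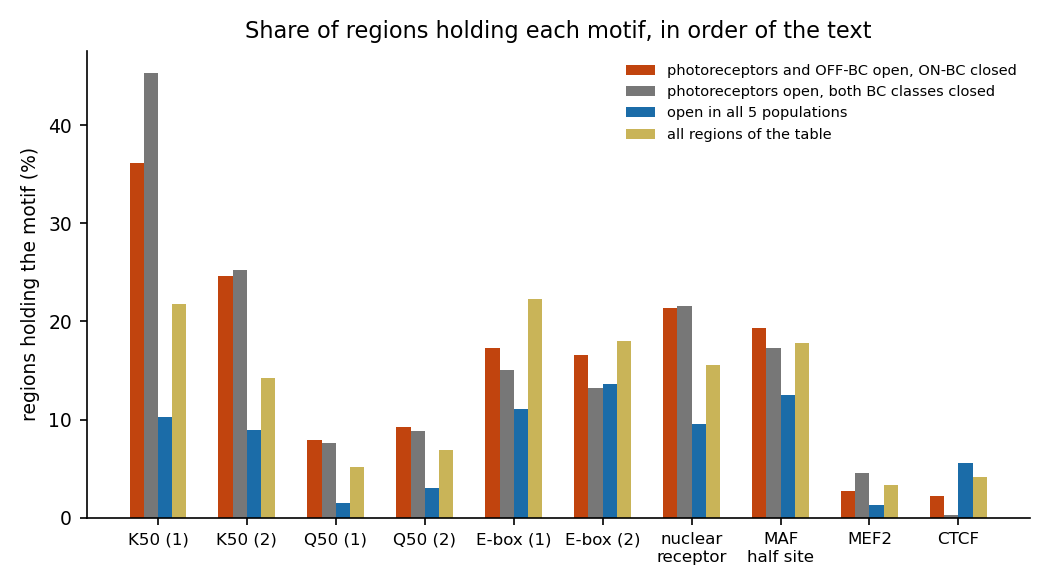
Percent of regions that hold each motif within 200 bp, on either strand, as bars for the 1994 regions, photoreceptor-only regions, regions open in all 5 populations and all regions, with each pair of numbered motifs in the order of the preceding paragraph. The first K50 core is in 36.1% of the members and 21.8% of all regions.

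The expression of the nearest genes was measured in separate libraries that the rule did not use. A library stood apart: OFF-BC RNA-seq replicate 3. The sum of 8 cone marker genes was 34744 and 29991 normalised counts in OFF-BC replicates 1 and 2 and 104776 in replicate 3, against 5120 to 5912 in ON-BC and 1501640 to 1726195 in blue cones. The sum of 10 rod marker genes was 11117, 10091 and 31341 in OFF-BC, 28798 to 34277 in ON-BC and 1975731 to 2728076 in rods. The cone marker sum was thus above ON-BC in all 3 OFF-BC libraries, and the rod marker sum was below ON-BC in the first 2. Gnat2 (16557 and 13813) and Gngt2 (12305 and 9131) made up most of the cone sum in OFF-BC replicates 1 and 2. Opn1sw had 4477 and 4314 there, against 447 to 822 in ON-BC, and Arr3 had 782 and 1294, against 96.4 to 229. Pde6h had 313 and 692, against 43.1 to 128 in ON-BC, and Opn1mw had 237 and 619, against 72.8 to 122. Pde6c had 71.5 and 121, against 16.5 to 35.3 in ON-BC. Cnga3 had 1.12 and 7.21, which overlapped ON-BC (1.03 to 7.22). Of the 8 cone markers, 7 were called higher in OFF-BC than in ON-BC, and 6 without OFF-BC replicate 3. The OFF-BC markers summed to 55190 to 76891 in OFF-BC and 2180 to 2404 in ON-BC, and the ON-BC markers to 21674 to 33859 in OFF-BC and 217635 to 223773 in ON-BC. The sorts therefore matched their labels in direction. In bulk samples, fewer cells of a type and less RNA per cell cannot be told apart. The part of cone RNA in the differences below was not tested.

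Of the 1673 nearest genes, 1545 matched a gene of the RNA-seq table and 1266 passed the filter on low counts. Between OFF-BC and ON-BC, 76 of them (6.0%) were called higher in OFF-BC by limma's treat, where 3.6% of all 14024 tested genes were, and 45 (3.55%) lower, where 2.95% were. The genes nearest to photoreceptor-only regions gave 52 and 37 of 1207 tested. Most nearest genes therefore did not differ between OFF-BC and ON-BC past the threshold, and the median difference was 0.05 on the log2 scale. Leaving out genes far higher in rods and blue cones than in the enriched bipolar population removed 3 of the 76, AI847159, Adamts3 and Jag1, and none of the 45.

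Against photoreceptors, the share of genes called lower in OFF-BC was above that of all genes, both for the members and for photoreceptor-only regions. Against rods, 350 (27.6%) were called lower, where 15.5% of all tested genes were, and 291 (23.0%) higher, where 27.1% were. Against blue cones, 336 (26.5%) were lower, where 13.7% were, and 206 (16.3%) higher, where 21.8% were. The genes nearest to photoreceptor-only regions had 31.2% lower and 16.7% higher against rods, and 25.8% lower and 13.3% higher against blue cones, so a larger share called lower was not particular to the members. Under scaling to the library total, the members' genes against rods numbered 338 higher and 293 lower, which turned the balance of calls. The median difference was -0.26 from rods and -0.27 from blue cones on the log2 scale, against 0.21 and 0.14 over all genes, and under scaling to the library total it turned to 0.09 and 0.01, against 0.56 and 0.42 over all genes. The members' median thus stayed below that of all genes under both scalings, whereas its sign did not. Of 143 tested genes with a member at the promoter, 61 (42.7%) were lower than rods and 62 (43.4%) lower than blue cones. Between rods and blue cones, 112 nearest genes (8.85%) were called higher in rods, where 4.63% of all genes were, and 183 (14.5%) lower, where 11.3% were.

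A set of 243 nearest genes (19.2%) was called lower in OFF-BC than in both rods and blue cones, where 8.56% of all tested genes were. The median RNA difference of OFF-BC was -3.79 from rods and -3.02 from blue cones on the log2 scale. Their 302 regions, open in OFF-BC by the rule, stood there at a median of 25.0% of rods and 41.8% of blue cones. Over all 1994 regions these medians were 42.9% and 47.0%. At these genes both transcripts and accessibility were thus lower in OFF-BC than in photoreceptors, with OFF-BC peaks present because the rule required them. Between OFF-BC and ON-BC, 17 of the 243 were called higher and 11 lower. The 161 genes (12.7%) called higher in OFF-BC than in both photoreceptors, where 17.9% of all genes were, had 185 regions at a median of 61.6% of rods and 52.6% of blue cones.

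**Figure D5:**
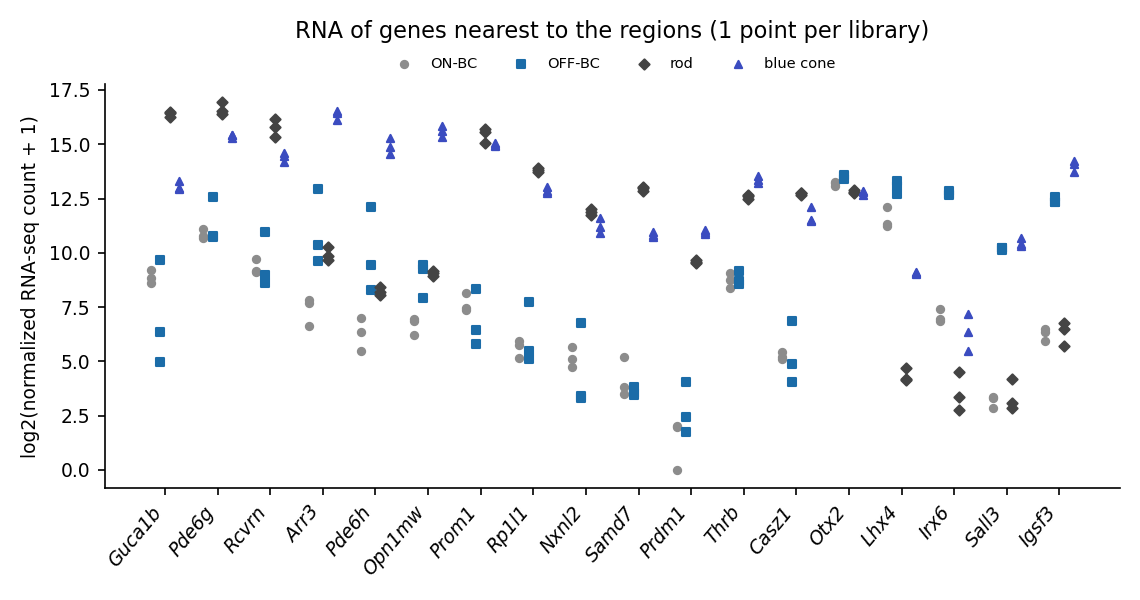
RNA-seq levels, as log2(normalised count + 1), of photoreceptor and bipolar genes and other named genes that lie nearest to a member, 1 point per library of OFF-BC, ON-BC, rods and blue cones. Most phototransduction and outer segment genes are far lower in all OFF-BC libraries than in rods. OFF-BC replicate 3 has the highest OFF-BC value for every phototransduction and outer segment gene drawn. The same holds for Samd7, Prdm1 and Casz1, and not for Thrb.

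Genes of both rod and cone phototransduction were among the nearest genes. Of 20 genes of rod phototransduction, 5 were nearest to a member (Pde6g, Rcvrn, Guca1a, Guca1b and Gnb5). All 5 were called lower in OFF-BC than in rods and 4 lower than in blue cones. Over the whole list, all 20 were called lower than in rods and 13 lower than in blue cones, so this was not particular to the 5. Pde6g, the inhibitory subunit of the rod phosphodiesterase, had 1690, 1756 and 6158 normalised counts in OFF-BC, 1723, 2187 and 1656 in ON-BC, and 87356, 124312 and 95928 in rods. The OFF-BC and ON-BC values overlapped. Of the list's 20 genes, 1 was called higher and 6 lower in OFF-BC than in ON-BC (median -0.28 on the log2 scale), and without OFF-BC replicate 3 these were 1 and 7 (median -0.78). Among the 5 near members, the call in OFF-BC against ON-BC was Gnb5 alone, with 4619, 4469 and 5612 in OFF-BC and 15041, 15812 and 16812 in ON-BC (-1.7 ± 0.13, adjusted p = 0.000786). Without OFF-BC replicate 3, Guca1b was called lower too (-3.26 ± 0.28, adjusted p = 2.26e-05), having 79.4, 30.0 and 801 in OFF-BC and 596, 392 and 462 in ON-BC.

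Of 11 genes of cone phototransduction, 5 were nearest to a member (Opn1mw, Pde6c, Pde6h, Cnga3 and Arr3). All 5 were called lower in OFF-BC than in blue cones, as were 10 of the 11 genes of the list. Arr3, the cone arrestin, had 782, 1294 and 7782 in OFF-BC, 229, 205 and 96.4 in ON-BC, and 94244, 88489 and 71844 in blue cones (OFF-BC against ON-BC 3.58 ± 0.56, adjusted p = 0.00306). The OFF-BC and ON-BC values did not overlap, and replicate 3 was far above the other OFF-BC libraries. In OFF-BC against ON-BC, 4 of the 5 and 8 of the 11 were called higher, and Gnb3, a beta subunit shared with ON bipolar cells, was called lower. Without OFF-BC replicate 3 these were 3 of the 5 and 7 of the 11, with Gnb3 still lower, since Opn1mw no longer passed (1.92 ± 0.3, adjusted p = 0.06). Cnga3, whose intronic region was more open in OFF-BC than in rods, had 1.12, 7.21 and 64.0 in OFF-BC, 7.22, 1.96 and 1.03 in ON-BC, and 4631, 4943 and 4963 in blue cones. Its OFF-BC and ON-BC values overlapped (1.51 ± 0.84, adjusted p = 1.0), and the difference was 0.19 without replicate 3.

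Of 21 genes of the outer segment and visual cycle, 8 were nearest to 12 members (Prph2, Prom1, Rp1l1, Abca4, Rdh12, Rdh8, Nxnl2 and Aipl1). All 21 genes of the list, these 8 included, were called lower in OFF-BC than in rods and than in blue cones. Between OFF-BC and ON-BC, 3 of the 21 were called higher and 1 lower, and without OFF-BC replicate 3 these were 3 and 5. Abca4 had 1870, 2570 and 2455 in OFF-BC, 699, 855 and 739 in ON-BC, and 19995, 22879 and 23097 in rods, and was called higher in OFF-BC than in ON-BC (1.58 ± 0.13, adjusted p = 0.00523). Its OFF-BC libraries did not overlap ON-BC and replicate 3 was within the range of the others. Prph2, a structural protein of the disc rim, had 994, 511 and 2878 in OFF-BC, 6629, 3904 and 6990 in ON-BC, and 153440, 200802 and 173488 in rods, and was called lower in OFF-BC than in ON-BC (-2.32 ± 0.4, adjusted p = 0.0376).

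Of 15 photoreceptor transcription factors, 7 were nearest to 11 members (Otx2, Thrb, Prdm1, Mef2c, Mef2d, Samd7 and Rax). Of these 7, 6 were called lower in OFF-BC than in rods, 5 lower than in blue cones, and 1 lower than in ON-BC. Over the whole list of 15, 13 were called lower than in rods, 12 lower than in blue cones, and 4 lower than in ON-BC. Otx2 differed past the threshold in none of the 3 comparisons, with 12264, 10858 and 11908 in OFF-BC, 9451, 8743 and 9750 in ON-BC, and 6796, 7638 and 7173 in rods. Samd7 had 10.1, 10.8 and 13.2 in OFF-BC, 10.3, 36.3 and 13.3 in ON-BC, and 8108, 8240 and 7470 in rods, although its promoter was the open region shown above. The transcript values of OFF-BC and ON-BC thus overlapped (-0.57 ± 0.32, adjusted p = 1.0), whereas the promoter's OFF-BC counts lay above those of ON-BC. Mef2d had 286, 252 and 233 in OFF-BC, 320, 364 and 339 in ON-BC, and 2946, 3114 and 3462 in rods. Mef2c, a related factor, was the call against ON-BC, with 420, 360 and 358 in OFF-BC and 1043, 1286 and 1090 in ON-BC (-1.58 ± 0.12, adjusted p = 0.00282). Over the whole list, Nrl, Nr2e3, Mef2c and Esrrb were called lower in OFF-BC than in ON-BC, also without OFF-BC replicate 3. By limma, 0 of the 15 were called higher, 0 had an unadjusted p below 0.05 in that direction, and edgeR and DESeq2 also called 0.

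Of 18 bipolar transcription factors, Lhx4 and Irx6 were nearest to a member. Lhx4 had 8534, 9971 and 6657 in OFF-BC, 2566, 4363 and 2400 in ON-BC, 17.5, 16.4 and 24.9 in rods, and 561, 539 and 511 in blue cones. It was called higher in OFF-BC than in rods (8.67 ± 0.2, adjusted p = 5.24e-15) and than in blue cones (3.94 ± 0.2, adjusted p = 1.4e-09), and the OFF-BC libraries were all above the ON-BC libraries without passing the threshold (1.47 ± 0.2, adjusted p = 0.196). Its region thus had its highest counts in blue cones, and its transcript in OFF-BC. Irx6, a factor of OFF bipolar subtypes, had 6414, 7249 and 6644 in OFF-BC and 114, 167 and 122 in ON-BC (5.67 ± 0.38, adjusted p = 1.76e-07). The member next to it had 21.6 and 31.2 in OFF-BC, 13.4 and 14.6 in ON-BC, and 122 and 140 in blue cones. Of the 18 factors, 5 were higher and 5 lower in OFF-BC than in ON-BC. Of 16 ribbon synapse genes, Ctbp2, Unc13b and Cplx4 were nearest to 5 members. Ctbp2, whose longer product is the main ribbon protein, had 12075, 9647 and 9982 in OFF-BC and 9503, 8893 and 8734 in ON-BC, and its values were close in both. By limma, 0 of the 16 were called between OFF-BC and ON-BC and 1, Erc2, had an unadjusted p below 0.05. Erc2 was called higher in OFF-BC by edgeR, not by DESeq2, and by limma without OFF-BC replicate 3.

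The largest rise in OFF-BC relative to ON-BC among the nearest genes was that of Fam19a4, a secreted chemokine-like protein gene, which had 2322, 2023 and 1890 in OFF-BC and 15.5, 5.88 and 4.1 in ON-BC (7.96 ± 0.48, adjusted p = 3.04e-08). Sall3 had 1181, 1205 and 1115 in OFF-BC, 6.19, 8.82 and 9.23 in ON-BC, 17.5, 6.15 and 7.56 in rods, and 1618, 1372 and 1267 in blue cones (OFF-BC against ON-BC 7.02 ± 0.3, adjusted p = 5.45e-10). Igsf3, an immunoglobulin superfamily gene, had 6087, 5221 and 5119 in OFF-BC, 89.8, 81.3 and 59.5 in ON-BC, 50.5, 89.1 and 108 in rods, and 17225, 19299 and 13382 in blue cones. Sall3 and Igsf3 were thus high in OFF-BC and blue cones and low in ON-BC and rods. Opcml, a membrane-anchored adhesion protein gene, had 464, 386 and 353 in OFF-BC and 0, 3.92 and 1.03 in ON-BC (7.54 ± 0.69, adjusted p = 2.7e-06). A930003A15Rik had 4144, 4252 and 4664 in OFF-BC, 87.7, 99.9 and 82.1 in ON-BC, and 5157, 6466 and 6690 in rods, and OFF-BC did not differ from rods past the threshold (-0.48 ± 0.14, adjusted p = 1.0). Gm15881 was listed at 0 in all ON-BC, rod and blue cone libraries and had 74.9, 229 and 80.6 in OFF-BC. The others of the 10 were Mrvi1, Tekt1, 4933422H20Rik and Irx6, at differences of 5.67 to 6.29 on the log2 scale. All 10 remained called without OFF-BC replicate 3.

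The 10 genes with the largest fall in OFF-BC relative to ON-BC included Ednrb, Gpnmb, Ifitm10, Lhfpl2, Ccdc109b, Fbln2, Sdk1, Ttc12 and Cib4. Ednrb, the endothelin receptor type B gene, had 12.3, 21.6 and 79.5 in OFF-BC, 843, 1086 and 1527 in ON-BC, and 866, 827 and 726 in blue cones (OFF-BC against ON-BC -5.27 ± 0.43, adjusted p = 1.86e-06). Sdk1, a synaptic adhesion protein gene, had 14.5, 20.4 and 26.5 in OFF-BC and 455, 413 and 258 in ON-BC (-4.13 ± 0.44, adjusted p = 5.73e-05). Each of these genes was lower in OFF-BC and had the TSS nearest to a member, which the rule required to be open in OFF-BC and closed in ON-BC. Other regions may lie closer to the same genes. OFF-BC replicate 3 had the highest OFF-BC value for Ednrb, Gpnmb and Ifitm10. Blue cones expressed each of these at 108 counts or more in every library, and ON-BC at 225 or more. The sum of ON-BC markers was also highest in replicate 3, at 33859 against 25150 and 21674 in the other OFF-BC libraries. The source of these transcripts was not tested. All 10 genes remained called without replicate 3.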

How the data were processed

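ATAC-seq and RNA-seq of sorted mouse retinal cells were taken as deposited. The authors aligned reads to mm10 (STAR 2.7.0d for RNA-seq), kept ATAC-seq fragments of up to 150 bp, called peaks per library with MACS2 2.1.1, merged peaks into regions of 200 bp and counted reads over regions and genes. The deposited signal values are these counts scaled by the authors with a size factor for each library, and every value above 0 gave back a whole number of reads to within 0.01. The deposited peak files hold, as the authors' caller wrote them, a score, the fold enrichment at the summit and −log10 of p and q.

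Members were found by the midpoint of each region. They and the gene lists were chosen with earlier results of these data known. Differences were tested with limma 3.58.1 (treat, trended, log2 fold change threshold 1, pseudocount 1) with every library of an assay in 1 model, keeping 14024 of 24062 genes and 108448 of 110715 regions by filterByExpr, and Benjamini-Hochberg adjustment at 0.05. The limma step was tested on simulated data. edgeR 4.0.16 and DESeq2 1.42.0 on the recovered reads, other scalings, filters and left-out libraries were alternatives. A fold change on the log2(value + 1) scale understates low values. TSSs were those of 45756 RefSeq transcripts (GRCm38.p6). Of 1673 nearest genes, 1545 matched the RNA-seq table by symbol or synonym, and 4 gene rows with duplicated names were left out. Named were the 10 largest calls in each direction between OFF-BC and ON-BC, list genes nearest to a member, the 10 genes with most members, the 10 members highest in OFF-BC and in pan-BC, and marker genes. The 14 members called higher than rods and those at the rule's threshold were named after their values were seen. Replicates were separate sorts, with 2 to 4 retinas pooled per sort. Same-numbered ON-BC and OFF-BC libraries had the same postnatal day, so they may have been paired by design. Same-numbered libraries did not deviate together in all pairs (correlations -0.076, 0.222 and -0.065 for OFF-BC and ON-BC RNA-seq). The main fit used no pairing, and a fit with a replicate block is given below. Some results that fall under these rules are not reported here.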

Additional observations from a re-analysis of the deposited data

How the results depend on the processing

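With 2 ATAC-seq libraries a population and 4176776 to 12345845 counted reads, counting error is large at low values. The rule gave 1974 members with any base in a peak (1909 shared with the 1994), 2047 with −log10 q of at least 5 (1679 shared), 1627 with double-sorted green cones (1594 shared) and 1998 to 2687 with 1 library left out. Of the recomputed counts and shares, 223 stayed within 1.5 times or the replicate spread and 42 moved. Under library totals the balance of nearest genes called against rods turned, from 291 higher and 350 lower to 338 higher and 293 lower. Of the values recomputed for single genes and regions, 803 kept direction and call, 28 lost the call and 4 gained it. The causes were not tested.

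The share of members in both pan-BC peaks was 38.3% with strict peaks and 39.9 to 65.3% with 1 library left out, and that in double-sorted green cone peaks 84.4 to 91% with 1 library left out. Farther than 5000 bp from any TSS lay 76.7%. In the middle 100 bp, TAATCC was in 28.6%, TAAGCC in 17.4%, TAATTA in 5.22%, TAATTG in 5.47%, CAGATG in 9.93%, CAGCTG in 8.68%, AGGTCA in 12.7%, TGCTGA in 9.28% and the MEF2 motif in 1.65%. Members called higher in OFF-BC than in rods numbered 9 with TMM scaling, 30 with library totals, 24 with edgeR and 7 to 17 with 1 library left out. Those lower than blue cones numbered 411 with TMM, 759 with edgeR and 116 to 179 with 1 library left out, and those lower than green cones 642 with edgeR and 77 to 144. Between rods and blue cones, members higher in rods numbered 29 with library totals, 146 with edgeR, 22 with both cones as 1 level and 25 to 32 with 1 library left out, and those lower 140, 197 and 41 to 51 under library totals, edgeR and left-out libraries.

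Same-numbered libraries were fitted with a replicate block as an alternative. It gave 78 nearest genes higher and 44 lower between OFF-BC and ON-BC, and 14 members higher and 692 lower between OFF-BC and rods, and it moved no count by more than 1.5 times.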

Other observations

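Genes with several members showed both levels side by side. C1ql3, which encodes a secreted synaptic protein, had 4 members with 27.3 to 63.3 normalised ATAC-seq counts in OFF-BC, 8.96 to 28.4 in ON-BC and 95 to 381 in rods. Its RNA was 1.12, 2.4 and 4.41 in OFF-BC, 12.4, 21.6 and 13.3 in ON-BC, and 211, 217 and 213 in rods, and it was called lower in OFF-BC than in ON-BC (-2.26 ± 0.35, limma adjusted p = 0.0211). Fhod3 had 5 members, with 21.6 to 93.0 in OFF-BC and 54.9 to 328 in rods, and its RNA was 377, 406 and 468 in OFF-BC, 260, 237 and 164 in ON-BC, and 902, 917 and 861 in rods. OFF-BC did not differ from ON-BC past the threshold for Fhod3 (0.94 ± 0.18, adjusted p = 1.0).

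Of the 3 ribbon synapse genes nearest to members, 1 was called against rods. Over the whole list of 16, 2 were called higher in OFF-BC than in rods and 3 lower. Cplx4, a complexin of photoreceptor and bipolar ribbon synapses, had 3968, 3675 and 4841 in OFF-BC, 9533, 8184 and 10670 in ON-BC, and 62095, 78567 and 68593 in rods, and was called lower in OFF-BC than in rods (-4.07 ± 0.16, adjusted p = 1.29e-11). Its intronic region had 44.5 and 36.0 in OFF-BC, 0 and 2.93 in ON-BC, and 105 and 130 in rods. Unc13b, a priming factor of synaptic vesicles, had 1733, 2149 and 1835 in OFF-BC and 2966, 2751 and 3211 in rods and did not pass (-0.65 ± 0.13, adjusted p = 1.0).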
